A study of Mus musculus with 23 samples.

Results

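The genes that write, maintain or oxidise DNA methylation were followed through the mouse blood stem and progenitor compartment: Dnmt1, Uhrf1, Dnmt3a, Dnmt3b, Tet1, Tet2 and Tet3. They were chosen by name, and all 7 were found by symbol among the 32285 genes listed for each of the 11 gene-expression libraries. The libraries hold single KSL cells (c-Kit-positive, Sca1-positive, lineage-negative bone marrow cells), counted by unique molecular identifiers (UMIs) at the 3′ end of transcripts. The study asks how losing Jarid2, a co-factor of Polycomb repressive complex PRC2, differs from losing Ezh2, its catalytic subunit.

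The 6 baseline libraries are from mice aged 2 months that were not transplanted: a male (replicate 1) and a female (replicate 2) per genotype (Jarid2 KO, Ezh2 KO and Control). The 5 transplant libraries came from CD45.2 donor KSL cells sorted 18 weeks after 500000 donor cells and 500000 CD45.1 competitor cells were given to lethally irradiated recipients: 1 Control, 2 Ezh2 KO and 2 Jarid2 KO, with no sex label. Ezh2 KO mice carried floxed Ezh2 alleles (Ezh2fl/fl) and Jarid2 KO mice floxed Jarid2 alleles (Jarid2fl/fl). Mx1-Cre, whose Cre is driven by an interferon-inducible promoter that is not restricted to blood cells, is labelled for every group, Controls included. The labels do not say whether replicates of a transplant group are separate donors, so p-values measure the spread between these libraries.

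In mammals, cytosine methylation at CpG sites is set by Dnmt3a and Dnmt3b, the de novo methyltransferases. Dnmt1 copies it onto the new strand at replication, guided by Uhrf1, which binds hemimethylated DNA and ubiquitylates histone H3. Tet1, Tet2 and Tet3 oxidise methylcytosine, a step towards its removal. In blood, loss of Dnmt3a or Tet2 expands stem cells and both genes are recurrently mutated in clonal haematopoiesis, while loss of Dnmt1 or Uhrf1 exhausts stem cells.

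The promoters of Dnmt1 and Uhrf1 each held an E2F-type match, shown here because both transcripts turned out highest in cells called S phase. Whether the match plays a part in that was not tested. RefSeq (GRCm38.p6) gives 12 start sites for the 7 genes. In the 250 bases before each start, both strands were searched for the E2F-type letters TTTCCCGC, TTTCGCGC, TTTGGCGC and TTTGCCGC. Such a match occurs in 1.86% of 32851 mouse promoters. Among the starts of these genes it occurred in 1 of 3 for Dnmt1 and 1 of 2 for Uhrf1, and in none of the starts of the other 5 genes. The share of 1.86% is per window, while Dnmt1 had 3 windows and Uhrf1 2. Both matching windows were rich in CpG sites, with 26 for Dnmt1 and 30 for Uhrf1, against a median of 6 over all promoters. Each match lies inside the annotated gene, downstream of another start of the same gene. The 30 bases around each match follow, on the gene's own strand with the match in capitals. The Dnmt1 match reads the motif on the opposite strand.
Dnmt1, chr9:20952824-20952853, minus strand, match beginning 219 bases before the start: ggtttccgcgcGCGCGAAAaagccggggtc
Uhrf1, chr17:56304117-56304146, plus strand, match beginning 185 bases before the start: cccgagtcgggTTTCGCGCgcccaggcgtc

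The upstream windows of Uhrf1 and Tet1 are set side by side because their transcripts moved in opposite directions across the called cycle phases. Capitals mark CCAAT, a motif present on either strand in 33.9% of promoters. Neither window holds an E2F-type match, which says only that those letters are not in these bases. The other Uhrf1 window, not printed in full, holds the E2F-type match given above and 2 CCAAT matches. Among the windows not printed here, CCAAT matches numbered 4 and 3 at starts 1 and 3 of Dnmt1, with no match at start 2. The Tet3 window held 1, and Tet3 was not raised in S-called cells. Whether CCAAT plays a part in the levels by phase was not tested.
Uhrf1, first start, chr17:56303087-56303336, plus strand: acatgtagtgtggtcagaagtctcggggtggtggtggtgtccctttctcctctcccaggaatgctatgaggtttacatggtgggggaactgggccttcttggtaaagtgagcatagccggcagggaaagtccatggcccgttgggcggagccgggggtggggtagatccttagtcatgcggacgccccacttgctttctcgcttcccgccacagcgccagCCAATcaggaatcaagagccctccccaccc
Tet1, chr10:62887325-62887574, minus strand: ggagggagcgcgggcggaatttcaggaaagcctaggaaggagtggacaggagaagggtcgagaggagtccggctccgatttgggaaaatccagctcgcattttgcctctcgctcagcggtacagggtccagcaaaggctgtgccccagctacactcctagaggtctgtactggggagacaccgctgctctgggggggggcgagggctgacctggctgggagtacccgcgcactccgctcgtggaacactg
The promoters also differed in their own CpG content, the substrate of these enzymes. The window before the Tet2 start held 51 CpG sites, against a median of 6 over all promoters. The 3 Dnmt3a windows held 38, 40 and 15, Dnmt3b 21, Tet3 17 and Tet1 15. The Uhrf1 windows held 10 and 30 and the Dnmt1 windows 2, 7 and 26.

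In the same RefSeq build Dnmt1 lies on chromosome 9 (20907206 to 20959888), Uhrf1 on chromosome 17 (56303337 to 56323486), Dnmt3a on chromosome 12 (3801559 to 3914443) and Dnmt3b on chromosome 2 (153649411 to 153687730). Tet1 lies on chromosome 10 (62804570 to 62887469), Tet2 on chromosome 3 (133463677 to 133545136) and Tet3 on chromosome 6 (83362373 to 83457208). Annotated genes overlap 4 of them: Mir7081 in Dnmt1, Dnmt3aos and Gm31623 in Dnmt3a, Gm51805 in Tet1, and Mir6374 and B230319C09Rik in Tet3. The strand rule of the counting is not given in the sources used here, so reads of an overlapping transcript cannot be told apart from reads of these genes.

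After filtering, 46839 baseline and 26471 transplant cells were kept, with 83956300 to 126346471 and 67533820 to 111346978 UMIs per library. Each of the 7 genes had between 2139 and 23526 UMIs in every library. Any 2 libraries shared 4 to 30 cell barcodes. Up to 10% mitochondrial UMIs were allowed, a limit that 2.82% to 5.82% of baseline and 25.7% to 43.4% of transplant barcodes exceeded. Jarid2 and Ezh2, the targeted genes, did not both follow the labels. Ezh2 stood at 209 and 193 CPM (UMIs of a gene per 1000000 UMIs of the cells summed) in the 2 baseline Control libraries, 163 and 148 in Ezh2 KO, 184 in the transplant Control and 38.9 and 47.1 in transplant Ezh2 KO. Jarid2 stood at 159 and 150 CPM in baseline Control against 215 and 204 in Jarid2 KO, and at 38.4 in the transplant Control against 57.2 and 57.4 in Jarid2 KO. Which exons were removed is not in the labels, and a 3′ tag outside them does not read a deletion. Jarid2 KO and Ezh2 KO therefore mean, throughout, the libraries so labelled.

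Dnmt1 was measured at 153 and 162 CPM in baseline Control, 155 and 152 in the Ezh2 KO pair and 143 and 141 in the Jarid2 KO pair. Its transplant values were 245 CPM in Control, 211 and 240 in the Ezh2 KO pair and 213 and 232 in the Jarid2 KO pair. The Jarid2 KO libraries were the lowest at baseline, while after transplantation the single Control lay above all 4 knockout libraries.

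Uhrf1, the partner that brings Dnmt1 to replicated DNA, was at 79.2 and 78.6 CPM in baseline Control, 95.4 and 84.2 in the Ezh2 KO pair and 71.5 and 71.4 in the Jarid2 KO pair. After transplantation it was at 95.6 CPM in Control, 109 and 103 in the Ezh2 KO pair and 91.1 and 103 in the Jarid2 KO pair. At baseline the 3 genotypes did not overlap, with Ezh2 KO highest and Jarid2 KO lowest. After transplantation the Jarid2 KO libraries fell on both sides of the Control.

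The de novo enzyme Dnmt3a was at 77.3 and 83.1 CPM in baseline Control, 74.9 and 76.2 in the Ezh2 KO pair and 85.9 and 83.4 in the Jarid2 KO pair, and at 55.4, then 57.5 and 61.5, then 55.6 and 67.2 CPM in the same genotypes after transplantation. Dnmt3b was at 51.8 and 47.2 CPM, 48.2 and 48.2, and 51.4 and 48.2 at baseline, and at 33.3, then 38.5 and 41.2, then 32.5 and 36.7 CPM after transplantation. Dnmt3a was highest in Jarid2 KO at baseline, and Dnmt3b was highest in Ezh2 KO after transplantation. The Dnmt3b range of the baseline Controls enclosed both knockouts.

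Tet1 was at 62.3 and 55.8 CPM in baseline Control, 53.1 and 53.4 in the Ezh2 KO pair and 63.7 and 56.7 in the Jarid2 KO pair, and at 33.6, then 30.5 and 33.8, then 35.3 and 35.3 CPM after transplantation. Tet2 was at 41.0 and 39.7 CPM, 34.9 and 35.9, and 38.5 and 36.4 at baseline, and at 31.7, then 28.3 and 35.5, then 33.3 and 38.2 after transplantation. Tet3 was at 84.6 and 84.6 CPM, 74.4 and 76.5, and 83.1 and 81.0 at baseline, and at 62.0, then 58.3 and 63.6, then 63.1 and 68.8 after transplantation. All 3 oxidising enzymes were lowest in Ezh2 KO at baseline, with no overlap with Control. In that comparison 47.7% of all genes did not overlap, in either direction. With B-like cells (a class named from B-lineage markers) left out, Tet1 overlapped, at 66.0 and 56.5 CPM in Control and 61.1 and 57.2 in Ezh2 KO. Tet2 (42.7 and 40.2, against 38.0 and 37.7) and Tet3 (85.9 and 85.0, against 80.6 and 80.1) still did not. The 47.7% is over all kept cells, and no share is given without the B-like cells. After transplantation the Ezh2 KO range enclosed the Control for each of the 3 enzymes.

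**Figure D1:**
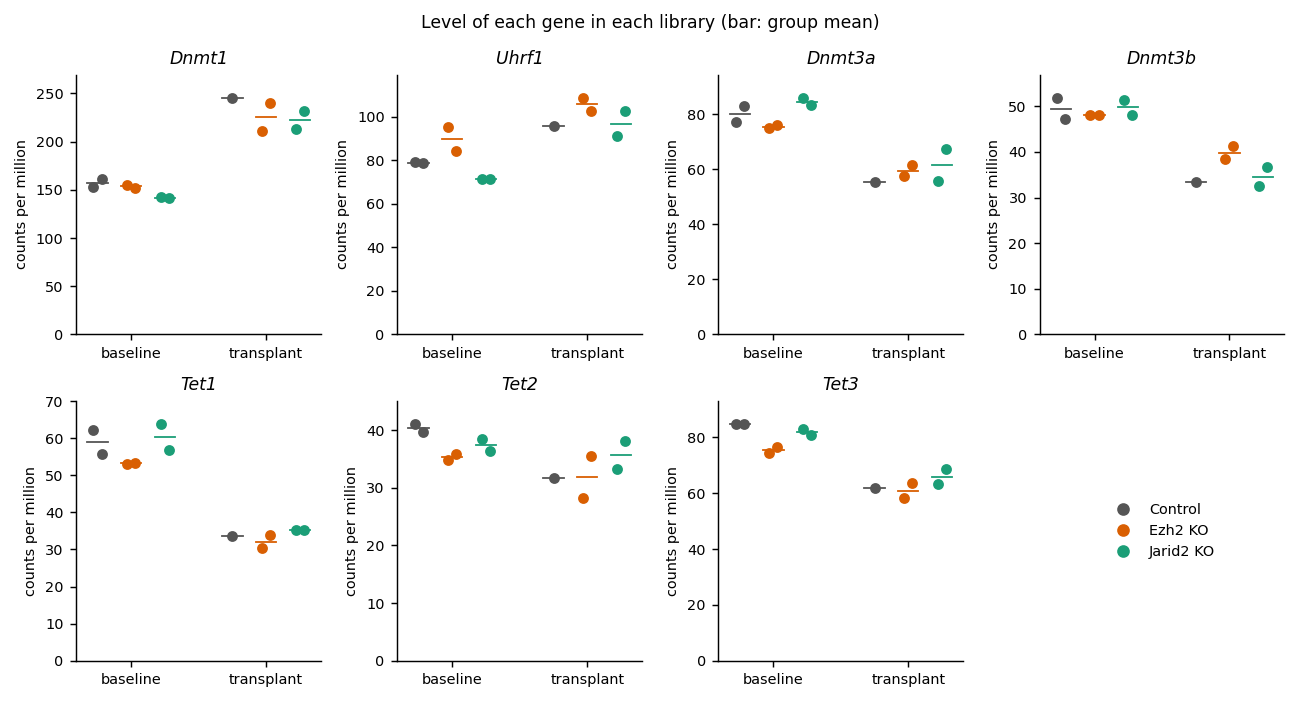
CPM of each gene in each library (points; vertical axis from 0), grouped by experiment and genotype, with a bar at the group mean. Tet2 and Tet3 of the baseline Ezh2 KO libraries, at 34.9 to 35.9 and 74.4 to 76.5, lie under the Controls, and Dnmt1 is higher in the transplant libraries (211 to 245) than in the baseline libraries (141 to 162).

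Between the experiments, Dnmt1 and Uhrf1 were higher after transplantation except that one transplant library of Uhrf1 (91.1 CPM) lay below the highest baseline library (95.4). Dnmt3a, Dnmt3b, Tet1 and Tet3 were lower in every transplant library than in every baseline library, as were 42.4% of 15471 genes, and Dnmt1 was higher in every one, as were 16.5%. The experiments also differ in counting software version, in cell makeup and in cycle phase (52.9% to 61.2% of baseline cells were called G1, against 18.0% to 29%), so these levels cannot be told apart from those differences. In sums over cells, fewer cells of a type and less RNA per cell cannot be told apart either.

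Libraries were compared with edgeR's quasi-likelihood test on summed counts, with sex as a term at baseline and Benjamini-Hochberg adjustment over all genes tested. Between the knockouts at baseline, Uhrf1 was the only one of the 7 genes that passed an adjusted p of 0.05, lower in Jarid2 KO than in Ezh2 KO by 0.35 on the log2 scale. Its log2 fold change was -0.35 (SE 0.07, 95% interval -0.52 to -0.19, edgeR adjusted p = 0.0469), a ratio of 0.784. DESeq2 called it too. The background for that 1 of 7 is 6.12% of 18196 genes called by edgeR and 8.75% by DESeq2. Dnmt1 (-0.14), Dnmt3a (0.14), Tet1 (0.15), Tet3 (0.10), Tet2 (0.06) and Dnmt3b (0.02) had adjusted p-values of 0.136 to 0.76.

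B-lineage content, cycle genes, RNA quality or stress genes and several other cell type lists moved with the Uhrf1 difference. Cells of a B-like class made up 22.6% and 12.1% of the Ezh2 KO libraries, 8.03% and 2.23% of Control and 3.11% and 3.15% of Jarid2 KO. The summed level of the B marker list ran from 1656 to 3112 CPM in Ezh2 KO, 330 to 1096 in Control and 464 to 473 in Jarid2 KO. The S-phase list summed to 3481 to 3664 CPM in Ezh2 KO and 3224 to 3228 in Jarid2 KO, the G2/M list to 6058 to 7185 and 5102 to 5181, the stem list to 1217 to 1395 and 1731 to 1732, and the list of RNA quality or stress genes to 7624 to 7920 and 8999 to 10166. The knockouts overlapped in none of these lists, and 53.3% of all genes did not overlap between them. The erythroid list was also apart, at 726 to 738 CPM in Ezh2 KO and 831 to 1272 in Jarid2 KO. So were the megakaryocyte, basophil or mast, T or innate lymphoid and endothelial or stromal lists. The lymphoid, myeloid, dendritic and monocyte or macrophage lists overlapped. The part of the stem, RNA quality and these other cell type lists in the result was not tested. With the B-like cells left out, Uhrf1 was at 65.7 and 75.2 CPM in Control, 71.6 and 72.8 in the Ezh2 KO pair and 66.0 and 67.6 in the Jarid2 KO pair. The log2 difference between the knockouts was then -0.12 (edgeR adjusted p = 0.347). Inside the B-like class the order of the genotypes was another one: Uhrf1 was at 225 and 258 CPM in Control, 190 and 181 in the Ezh2 KO pair and 217 and 205 in the Jarid2 KO pair, with Ezh2 KO below all other libraries. The log2 difference there was -0.30 for Ezh2 KO against Control (95% interval -0.50 to -0.09, edgeR adjusted p = 0.0815) and 0.16 for Jarid2 KO against Ezh2 KO (-0.05 to 0.37, 0.389). A B-like cluster with 91.4% of its Control cells called G1 held 33.25% of the class in Ezh2 KO, 19.4% in Control and 21.9% in Jarid2 KO. One with 58.2% called G1 held 5.3%, 17.1% and 4.9%, and one with 0% held 61.4%, 63.5% and 73.2%. The part of phase in the order inside this class was not tested. The call over all kept cells ended without the male Ezh2 KO (adjusted p 0.0844), the male Jarid2 KO (0.285) or the female Jarid2 KO library (0.151), and without the sex term (0.106).

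Against Control no gene of the 7 was called at baseline, by edgeR or by DESeq2. Of all genes edgeR called 3.61% in Ezh2 KO and 0.0275% in Jarid2 KO, and DESeq2 7.54% and 1.34%. In Ezh2 KO 3 of 7 had an unadjusted p under 0.05, as did 23.4% of all genes. These were Uhrf1 at 0.23 (95% interval 0.06 to 0.39, edgeR adjusted p = 0.121), Tet2 at -0.14 (-0.25 to -0.04, 0.128) and Tet3 at -0.12 (-0.22 to -0.02, 0.153). In Jarid2 KO 0 of 7 did, against 11.5% of all genes. The largest estimates there were Dnmt1 at -0.13 (-0.26 to 0.00, edgeR adjusted p = 0.436) and Uhrf1 at -0.12 (-0.29 to 0.04, 0.534). Over the 7 genes the median log2 difference was -0.04 in Ezh2 KO and -0.02 in Jarid2 KO, and over all genes -0.00 and 0.00.

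After transplantation none of the 7 was called in any contrast by edgeR or DESeq2, and none had an unadjusted p under 0.05, which 17.2%, 8.41% and 26.4% of all genes had in the 3 contrasts listed next. All genes were called at 4.94% in Ezh2 KO against Control, 0.369% in Jarid2 KO against Control and 12.3% between the knockouts by edgeR, among 15735 tested, and at 5.72%, 1.19% and 11.7% by DESeq2. The estimate with the smallest p was Dnmt3b, at -0.18 in Jarid2 KO against Ezh2 KO (95% interval -0.36 to 0.01, edgeR adjusted p = 0.208). Intervals against the single Control were wide, such as -0.54 to 0.13 for Dnmt1 in Ezh2 KO. Sex markers were uneven here: Xist-positive cells without a Y-linked UMI were 59.5% of the Control library, 48.3% and 49.9% of Jarid2 KO and 0.0163% and 0.0511% of Ezh2 KO. With male cells only, none of the 7 was called either.

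**Figure D2:**
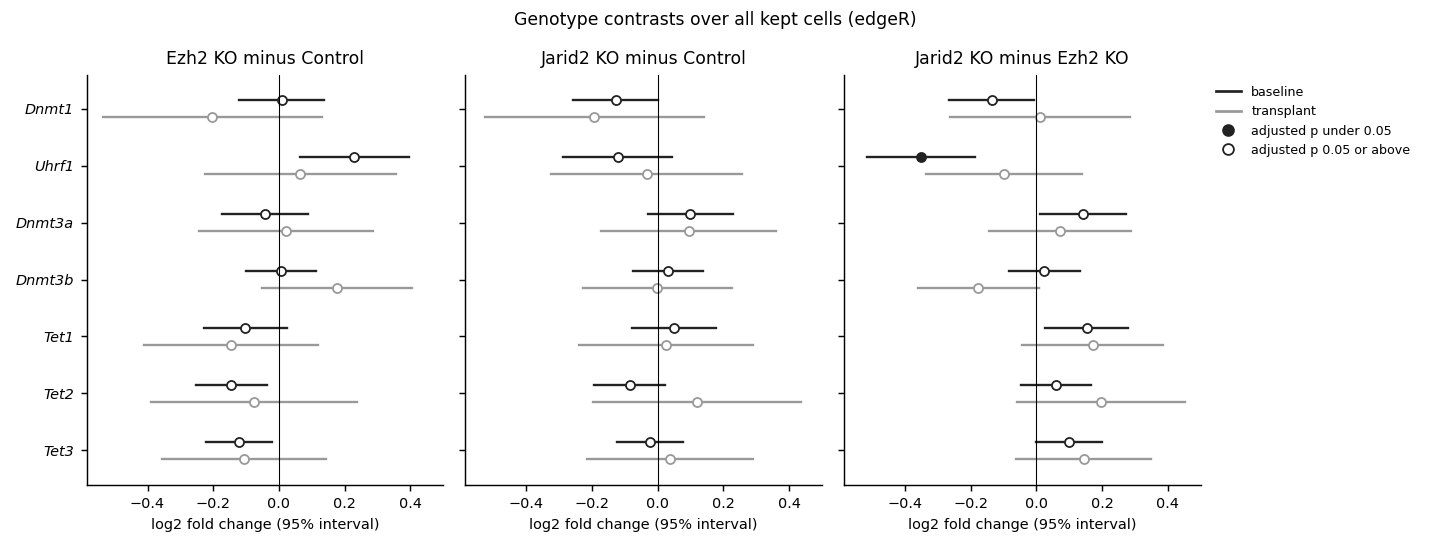
Log2 fold change with its 95% interval (horizontal axis) for each gene in the 3 genotype contrasts, at baseline in black and after transplantation in grey, from edgeR over all kept cells. The one filled point, Uhrf1 in Jarid2 KO minus Ezh2 KO at baseline (-0.35), is the one estimate with an adjusted p under 0.05.

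Separation of the libraries without a test is given as a description. At baseline the libraries of the 2 groups did not overlap for 5 of 7 genes in Ezh2 KO against Control (47.7% of all genes), 5 in Jarid2 KO against Control (36.6%) and 7 between the knockouts (53.3%). After transplantation the counts were 4 (76.9%), 5 (61.6%) and 3 (47.1%).

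A fit over all 11 libraries, with genotype and experiment as terms, called none of the 7 by edgeR in any contrast. Neither this fit nor the test below of differences between the experiments had a sex term. The share of all genes called was 2.81% in Ezh2 KO against Control, 0% in Jarid2 KO against Control and 7.32% between the knockouts. Between the knockouts 4 of 7 had an unadjusted p under 0.05 (23.1% of all genes), among them Tet3 at 0.13 (95% interval 0.05 to 0.22, edgeR adjusted p = 0.0623), Tet1 at 0.18 (0.06 to 0.29, 0.073) and Uhrf1 at -0.21 (-0.36 to -0.07, 0.078). DESeq2 called Tet3 (adjusted p = 0.00386) and Tet1 (adjusted p = 0.0146), both higher in Jarid2 KO, and it called 1 of 7 in Ezh2 KO against Control and 0 in Jarid2 KO against Control. Of all genes DESeq2 called 12.3%, 6.94% and 0.412% in these contrasts. Against Control, 2 of 7 in Ezh2 KO (17.5% of all genes) and 1 of 7 in Jarid2 KO (6.17%) had an unadjusted p under 0.05. B-like cells, low in Tet1 and lowest of the baseline classes in mean Tet3, were more frequent in the baseline Ezh2 KO libraries. With them left out, Tet1 of the baseline knockouts overlapped (Ezh2 KO 57.2 to 61.1 CPM, Jarid2 KO 57.8 to 65.1). Tet3 did not (80.1 to 80.6, against 81.6 to 83.4). Over all kept cells 53.3% of all genes did not overlap between the baseline knockouts, and no share is given without B-like cells. The part of B-like cells in the DESeq2 calls of Tet3 and Tet1 was not tested. The test of whether a genotype difference itself differed between the experiments called none of the 7 by edgeR or DESeq2, with 0 of 7 at an unadjusted p under 0.05 in each contrast and a smallest adjusted p of 0.31. Of all genes, edgeR called 0.359%, 0% and 2.31% in that test and DESeq2 1.45%, 0.291% and 4.83%, for Ezh2 KO against Control, Jarid2 KO against Control and between the knockouts.

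Dnmt1 and Uhrf1 differed widely in level between called cycle phases. Each cell was called G1, S or G2/M from 2 lists of cycle genes that hold none of the 7. The cells within 0.02 of the cut made up 2.41% to 2.81% of baseline and 5.74% to 7.31% of transplant libraries. Phase calls come from the same libraries as the levels, so what follows is a description without a test.

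Uhrf1 was at 6.9 and 7.7 CPM in the G1-called cells of baseline Control, 9.5 and 7.5 in the Ezh2 KO pair and 7.4 and 6.7 in the Jarid2 KO pair. In S-called cells of the same libraries it was at 162 and 167, 185 and 177, and 156 and 162 CPM. The ratio of S to G1 was 22.2 ± 1.79 (SD, n = 6 libraries), and after transplantation it was 7.51 ± 0.30 (n = 5). Every library lay far above 1, from 7.2 to 24.1. Phases were called in each experiment separately, and Mki67 was at 29.2 to 43.9 CPM in G1-called transplant cells, against 9.78 to 17.5 at baseline. Uhrf1 was at 19.4 to 23.0 CPM in G1-called and 141 to 169 in S-called transplant cells. The smaller ratios after transplantation, here and for Dnmt1 below, cannot be told apart from this difference between the cells called G1. Uhrf1 was lower in G2/M-called than in S-called cells, with S-called cells 2.08 ± 0.29 times the G2/M-called cells at baseline and 2.39 ± 0.12 times after transplantation. G2/M-called cells were still 8.69 to 14.0 times the G1-called cells at baseline and 3.05 to 3.24 times after transplantation.

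Dnmt1 was at 47.8 to 58.1 CPM in the G1-called and 229 to 255 CPM in the S-called cells of the baseline libraries, a ratio of 4.66 ± 0.22 (SD, n = 6). After transplantation the ratio was 3.01 ± 0.25 (n = 5). In G2/M-called cells it was at 4.03 ± 0.25 times G1 at baseline and 2.36 ± 0.26 times after transplantation. The S to G2/M ratio of Dnmt1 was 1.1 to 1.31 over all libraries, below that of Uhrf1 (1.67 to 2.52) in each experiment. The replication genes Mcm2 and Pcna had S to G1 ratios of 6.89 and 4.83 at baseline and 3.72 and 3.20 after transplantation. Both of those genes are among the ones used to call S phase, while Uhrf1 and Dnmt1 are not.

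Dnmt3a and Tet1 went the other way. Dnmt3a was at 88.7 to 98.1 CPM in G1-called and 48.3 to 56.7 CPM in G2/M-called baseline cells, with a G2/M to G1 ratio of 0.56 ± 0.02 (SD, n = 6) at baseline and 0.60 ± 0.06 (n = 5) after transplantation. Tet1 was at 70.5 to 77.1 CPM in G1-called and 44.0 to 53.9 CPM in S-called baseline cells, a ratio of 0.66 ± 0.05, and 0.50 ± 0.04 after transplantation. All 11 libraries lay below 1 for both ratios. Tet2 had an S to G1 ratio of 0.69 ± 0.03 at baseline and 0.82 ± 0.03 after transplantation, below 1 in all 11 libraries too.

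Dnmt3b and Tet3 varied least with the called phase at baseline. The S to G1 ratio of Dnmt3b was 1.03 ± 0.06 at baseline and 0.84 ± 0.05 after transplantation, and that of Tet3 was 0.97 ± 0.05 and 0.81 ± 0.02. At baseline their libraries lay on both sides of 1, with 4 of 6 above it for Dnmt3b and 2 of 6 for Tet3. In G2/M-called cells both were lower than in G1-called cells in all 6 baseline libraries, at ratios of 0.72 to 0.85 for Dnmt3b and 0.76 to 0.92 for Tet3.

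**Figure D3:**
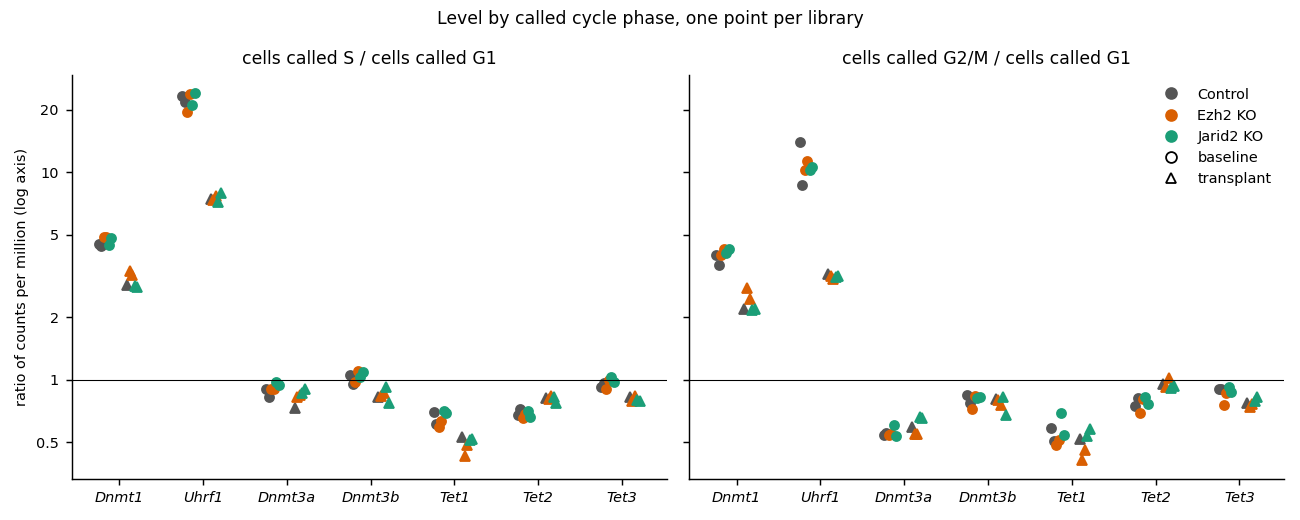
Ratio of CPM in S-called over G1-called cells (left) and in G2/M-called over G1-called cells (right), on a log axis, with one point per library, circles for baseline and triangles for transplant. Uhrf1 (7.2 to 24.1) and Dnmt1 (2.82 to 4.89) stand above 1 in every library on the left, and Tet1 (0.43 to 0.71) below it.

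Within one called phase no genotype difference of the 7 was called. In G1-, S- and G2/M-called cells, edgeR called none of the 7 in any contrast of either experiment, and DESeq2, run on G1-called cells, called none there. In G1-, S- and G2/M-called baseline cells all genes were called at 0.675%, 2.32% and 4.25% in Ezh2 KO against Control, 0.195%, 0.0254% and 0% in Jarid2 KO against Control and 1.97%, 3.1% and 5.53% between the knockouts. After transplantation the shares were 3.32%, 3.18% and 2.96%, then 0.11%, 0.242% and 0.178%, then 8.98%, 10.3% and 7.97%. In S-called baseline cells Uhrf1 stood at -0.22 between the knockouts, and 3 of 7 genes had an unadjusted p under 0.05 there (21.5% of all genes), with a smallest adjusted p of 0.108. The other S-called contrasts had 2 of 7 in Ezh2 KO (19% of all genes) and 1 in Jarid2 KO (10.6%) against Control, and 0 after transplantation (7.72% to 24.2%). In G1-called baseline cells 1 of 7 in Ezh2 KO against Control passed that unadjusted threshold (17.3% of all genes). None did in the other G1-called contrasts (8.43% to 23.6%). In G2/M-called cells 1 of 7 passed it in Ezh2 KO against Control at baseline (20.8% of all genes), 2 between the baseline knockouts (23.3%), 2 between the transplant knockouts (21.2%) and 0 elsewhere (6.69% to 14.1%).

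Clusters of cells, found without the 7 genes, were named "-like" where fixed markers marked them. They were found and named in Control cells only, which after transplantation are a single library. Each knockout cell was given the commonest cluster of its 15 nearest Control cells. A state present only in a knockout could thus not form a cluster of its own. The level of each gene in the classes is a description. Of the baseline cells 29612 of 46839 and of the transplant cells 7024 of 26471 stayed unnamed. The classes differ in called phase: 95.1% of stem-like cells were called G1 at baseline, against 82.9% of lymphoid-like, 39.0% of myeloid-like, 32.7% of B-like, 17.3% of megakaryocyte-like and 16.3% of erythroid-like cells. After transplantation 66.9% of stem-like, 64.6% of T or innate lymphoid-like and 43.3% of lymphoid-like cells were called G1. The shares were 7.28% of basophil or mast-like, 4.12% of myeloid-like and 1.48% of monocyte or macrophage-like cells. One of the 4 baseline stem-like clusters was led by interferon-stimulated genes such as Ifit3 and Cxcl10, and it held 4.0% to 4.5% of the stem-like cells of each genotype. The transplant cluster named megakaryocyte-like was led by Pf4 together with S-phase genes, Uhrf1 among them, and held no G1-called cell, so its name and its phase cannot be told apart.

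Uhrf1 had its lowest mean in stem-like cells at baseline, at 9.07 CPM (7.57 to 11.0 over 6 libraries, within the dendritic-like range of 2.54 to 66.3), and its highest in B-like cells, at 213 CPM (181 to 258). Megakaryocyte-like (106 CPM), erythroid-like (94.6) and myeloid-like (73.8) cells lay between, each overlapping its neighbour in that order. The next group, T or innate lymphoid-like (22.1), lymphoid-like (21.9) and dendritic-like (21.7) cells, overlapped among themselves. After transplantation stem-like cells, at 30.3 CPM (26.4 to 33.1), overlapped with T or innate lymphoid-like cells (40.7, 21.3 to 77.5) at the low end, and megakaryocyte-like cells were highest, at 234 (211 to 258). Within G1-called baseline cells Uhrf1 was at 33.1 CPM (20.7 to 56.5) in B-like cells, overlapping megakaryocyte-like cells (19.3, 9.31 to 28.8), which in turn overlapped myeloid-like cells (11.0, 6.78 to 16.0). Lymphoid-like cells (8.21, 7.07 to 10.3) overlapped myeloid-like cells and did not overlap stem-like cells (5.43, 3.70 to 6.28). T or innate lymphoid-like (4.77, 0 to 11.7) and dendritic-like cells (1.73) had the lowest means, and each overlapped its neighbour in that order.

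Dnmt1 followed a similar order, from 233 CPM in megakaryocyte-like (212 to 257) and 214 in B-like cells (187 to 241) down to 54.8 in stem-like (50.6 to 57.9) and 54.5 in dendritic-like cells (37.5 to 74.9). The first 4 classes, with erythroid-like (172) and myeloid-like (153) cells, overlapped from neighbour to neighbour, and none of them overlapped the T or innate lymphoid-like cells (71.9, 65.5 to 81.2). Within G1-called cells that order changed for the B-like class: Dnmt1 was at 108 CPM in megakaryocyte-like, 48.2 in stem-like and 30.5 in B-like cells. Of the transplant classes, megakaryocyte-like cells had the most Dnmt1 (363 CPM, 327 to 393) and stem-like cells (118, 102 to 127) overlapped with the lowest, T or innate lymphoid-like cells (99.3, 72.1 to 148).

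Dnmt3a was highest in lymphoid-like (101 CPM, 94.7 to 108) and stem-like cells (96.7, 93.6 to 103) at baseline and lowest in B-like (40.9, 33.0 to 48.0) and erythroid-like cells (27.7, 22.4 to 35.6). Megakaryocyte-like cells, at 95.4 CPM (80.9 to 108), overlapped the leading classes although 17.3% of them were called G1. Within G1-called cells Dnmt3a was at 60.6 CPM (49.9 to 70.0) in B-like cells, still under the stem-like range (92.2 to 104). After transplantation stem-like cells (79.1 CPM) led and myeloid-like cells (46.3) came last, with each neighbour in the order overlapping the next.

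For Dnmt3b each baseline class overlapped with its neighbour in the order. Stem-like (47.3 CPM), lymphoid-like (46.5), megakaryocyte-like (45.0) and myeloid-like cells (40.5, 27.2 to 53.5) led. They were followed by erythroid-like (20.4, 17.2 to 28.8), B-like (13.7), T or innate lymphoid-like (11.0) and dendritic-like cells (6.83). After transplantation megakaryocyte-like (50.9), stem-like (48.8), lymphoid-like (43.3) and basophil or mast-like cells (37.7, 32.2 to 42.1) did not overlap with monocyte or macrophage-like (20.5, 16.9 to 25.7) and myeloid-like cells (17.9, 16.4 to 19.9).

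Tet1 was highest in lymphoid-like and stem-like cells. At baseline it was at 76.5 CPM in lymphoid-like (68.3 to 86.1) and 68.2 in stem-like cells (64.4 to 73.6), and at 10.6 in erythroid-like (8.50 to 12.7) and 6.15 in dendritic-like cells (0 to 17.8). After transplantation stem-like cells, at 63.9 CPM (60.3 to 68.3), did not overlap any other class, and myeloid-like (15.6) and monocyte or macrophage-like cells (13.1) had the least. Called phase moved with this order, as 66.9% of stem-like, 4.12% of myeloid-like and 1.48% of monocyte or macrophage-like cells were called G1. The part of phase was not tested. In G1-called baseline cells myeloid-like cells reached 76.8 CPM (67.6 to 93.8) and overlapped with stem-like cells (68.2, 64.4 to 74.1), while T or innate lymphoid-like cells stayed at 22.6 (15.1 to 34.3).

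Tet2 had another order of classes. At baseline it was highest in dendritic-like (73.0 CPM, 51.8 to 87.1) and T or innate lymphoid-like cells (71.2, 55.5 to 86.7), and lowest in erythroid-like (22.7, 20.6 to 27.9) and B-like cells (18.9, 14.8 to 22.7), with stem-like cells at 40.1 (38.7 to 41.3). Within G1-called transplant cells Tet2 was at 64.0 CPM (61.6 to 67.4) in basophil or mast-like cells and overlapped no other class there. Tet3 varied least across the baseline classes, from 118 CPM in dendritic-like (96.1 to 140) to 60.2 in B-like cells (45.6 to 73.5), with every neighbour in the order overlapping.

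**Figure D4:**
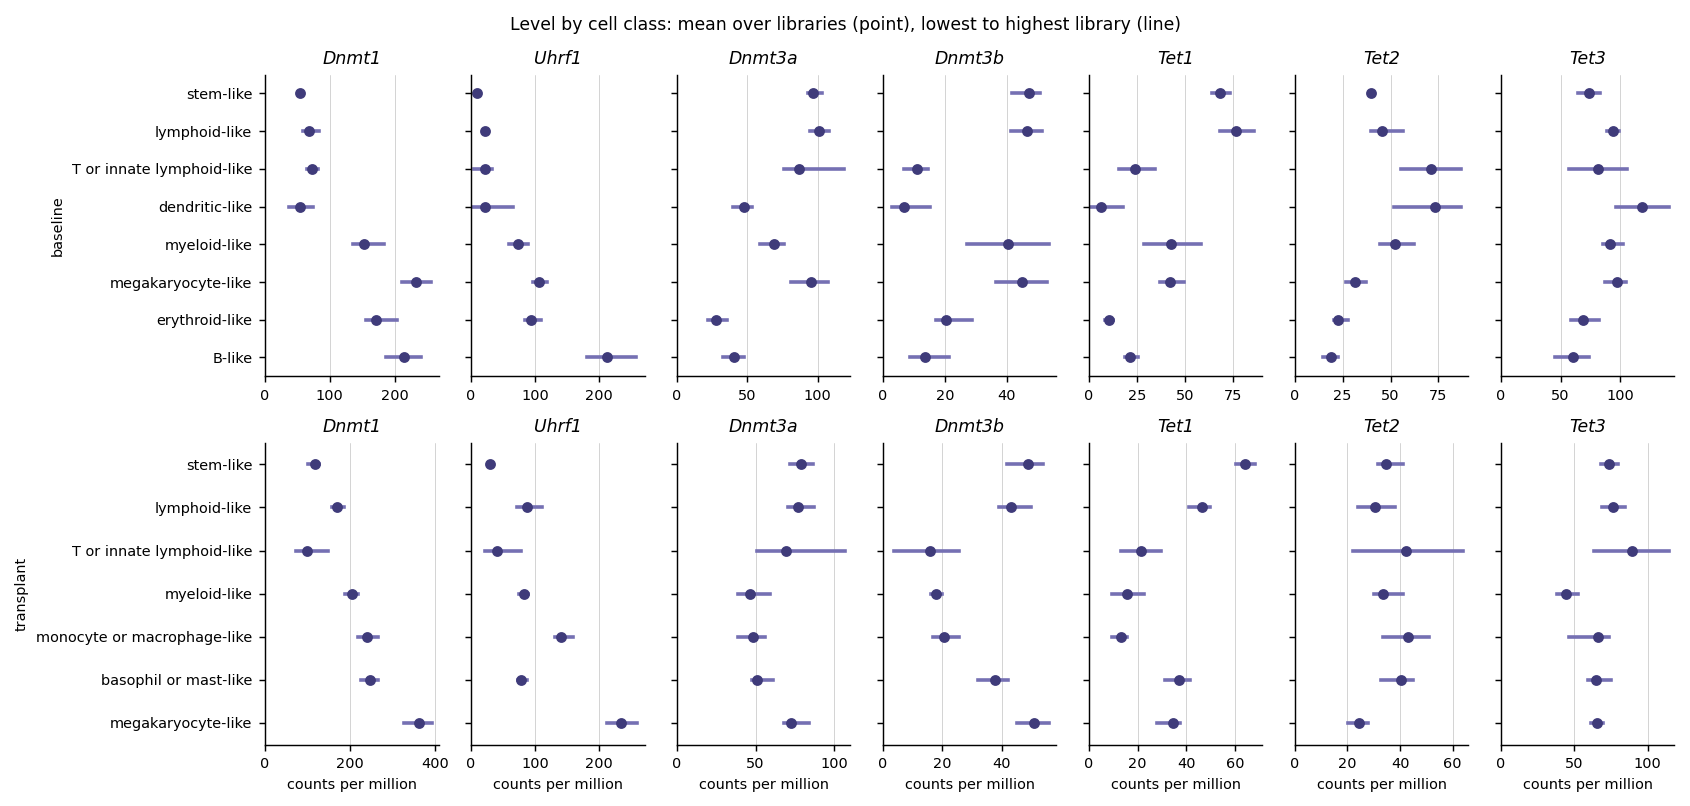
CPM of each gene by cell class, baseline above and transplant below, with the mean over libraries (point) and the lowest to highest library (line), each horizontal axis starting at 0. Uhrf1 runs from 9.07 in baseline stem-like to 213 in B-like cells, while Tet1 runs from 68.2 to 21.3 in the same classes.

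Across 85 sums of a class in a library (48 baseline, 37 transplant, at least 50 cells each), Dnmt1 and Uhrf1 varied together, with a Pearson r of 0.925 on the log2 scale. The sums share libraries, depth and called phase, so these values are descriptive. Dnmt1 was most like Usp1 (r = 0.966), a deubiquitinase of the DNA damage response, Lig1 (0.960), the DNA ligase of replication, and Cenpk (0.957), a centromere protein. Uhrf1 was most like Tipin (0.954) and Clspn (0.953), parts of the replication checkpoint, and Dnajc9 (0.952), a histone chaperone. Usp1, Tipin and Clspn are on the S-phase list. Tet1 varied with Dnmt3b (0.791) and Dnmt3a (0.779), and its closest genes were Msi2 (0.894), an RNA-binding protein of blood stem cells, Eya1 (0.892) and Itih5 (0.890).

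Dnmt3a was most like Smarca2 (r = 0.907), an ATPase of the SWI/SNF complex, Pear1 (0.873) and Phf21a (0.857), and Dnmt3b most like Kctd1 (0.894), Osbpl1a (0.893) and Spred1 (0.893). Tet2 was most like Anxa2 (0.835), Myo1f (0.827) and Ppm1h (0.826). Tet3 had the weakest partners, Ubn2 (0.762), Elmsan1 (0.742) and Adnp (0.736). Uhrf1 and Tet2 were the most opposed pair among the 7, at -0.615.

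Genotypes were then compared inside each class with edgeR, over 49 tests per contrast at baseline and 47 after transplantation. At baseline 1 test was called in Ezh2 KO against Control, 2 in Jarid2 KO against Control and 2 between the knockouts, with 7, 5 and 5 at an unadjusted p under 0.05 (over the classes, 5.34% to 21.1%, 7.22% to 21.5% and 9.50% to 21.1% of all genes). DESeq2 called 0 in each. The background is given in that order of contrasts: of all genes, edgeR called 8.16%, 0.0253% and 7.5% in B-like, 0.82%, 4.39% and 6.15% in T or innate lymphoid-like and 3.17%, 8.99% and 1.34% in myeloid-like cells. The shares were 0.487%, 0.538% and 3.01% in erythroid-like, 1.25%, 0.539% and 1.62% in lymphoid-like, 0.353%, 0.371% and 0.714% in megakaryocyte-like and 0.00741%, 0.0296% and 0.0519% in stem-like cells. In stem-like cells no contrast thus went beyond 0.0519%. After transplantation 0, 0 and 2 tests were called, with 5, 4 and 4 at an unadjusted p under 0.05 (6.64% to 13.3%, 4.50% to 10.9% and 6.69% to 19.5% of all genes). DESeq2 called 0, 0 and 1. Of all genes, edgeR called 0.855%, 0.0404% and 5.13% in myeloid-like, 2.31%, 0.226% and 5.21% in lymphoid-like, 2.39%, 0.218% and 5.08% in stem-like and 1.38%, 0.0812% and 3.8% in basophil or mast-like cells. The shares were 1.23%, 0.049% and 2.41% in megakaryocyte-like, 0.214%, 0.0195% and 0.76% in monocyte or macrophage-like and 1.28%, 2.07% and 0.385% in T or innate lymphoid-like cells.

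The call that both tools made was Tet1 in transplant myeloid-like cells, higher in Jarid2 KO than in Ezh2 KO. Tet1 was at 22.8 and 19.8 CPM in Jarid2 KO (538 and 473 UMIs), 9.52 and 10.4 in Ezh2 KO (161 and 125 UMIs) and 15.6 in Control (201 UMIs). The Control lay between the knockouts, which did not overlap. The difference was 1.11 on the log2 scale (SE 0.15, 95% interval 0.76 to 1.46, edgeR adjusted p = 0.00569), a ratio of 2.16, where edgeR called 5.13% and DESeq2 3.36% of all genes. Without the first Ezh2 KO library the adjusted p was 0.0579. Called phase moved with this difference: 7.59% and 6.08% of the myeloid-like cells were called G1 in the Jarid2 KO libraries, against 0.894% and 1.00% in the Ezh2 KO libraries and 0.992% in Control. Those G1-called cells held 45 and 24 of the Tet1 UMIs of the Jarid2 KO libraries, and the part of cycle phase in the result was not otherwise tested. The estimate was above 0 in all 6 transplant classes where Tet1 was tested (0.15 to 1.11), and 1 of those 6 was called. The classes are parts of the same libraries, so they are not repeats, and Tet3 was above 0 in all 7 classes of this contrast. A cluster led by Wfdc21, Ncam1 and Elane held 72.6% of the myeloid-like class in Jarid2 KO, 63.7% in Ezh2 KO and 63.9% in Control. Its part in the Tet1 result was not tested. Sex markers also moved with this contrast. Over all kept cells, Xist-positive cells without a Y-linked UMI were 48.3% and 49.9% of Jarid2 KO and 0.0163% and 0.0511% of Ezh2 KO. Male cells were compared over whole libraries and not inside classes, so the part of sex in this call was not tested.

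Tet3 was lower in B-like cells of Ezh2 KO at baseline. It was at 70.4 and 64.5 CPM in Control, 49.7 and 45.6 in the Ezh2 KO pair and 73.5 and 57.5 in the Jarid2 KO pair, so the Ezh2 KO libraries lay under all others. The log2 difference was -0.42 against Control (SE 0.11, edgeR adjusted p = 0.0266, 8.16% of all genes called) and 0.44 for Jarid2 KO against Ezh2 KO (SE 0.11, edgeR adjusted p = 0.0277, 7.5%). DESeq2 gave adjusted p-values of 0.353 and 0.356. The cluster mix of this class, given above for Uhrf1, differed here too. The cluster with mostly G1-called Control cells held 33.25% of the class in Ezh2 KO, 19.4% in Control and 21.9% in Jarid2 KO. Its part in the Tet3 calls was not tested. Leaving out either Control library or the male Ezh2 KO library ended the first call (adjusted p 0.234, 0.119 and 0.274), and leaving out the male Ezh2 KO or the male Jarid2 KO library ended the second (0.177 and 0.405).

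Uhrf1 was lower in baseline T or innate lymphoid-like cells of Jarid2 KO, at few UMIs. It was at 25.6 and 31.9 CPM in Control (13 and 14 UMIs), 26.1 and 32.5 in Ezh2 KO (18 and 27 UMIs) and 4.31 and 11.9 in Jarid2 KO (5 and 18 UMIs). The log2 difference was -1.76 against Control (SE 0.47, edgeR adjusted p = 0.0145, 4.39% of all genes called) and -1.77 against Ezh2 KO (SE 0.42, edgeR adjusted p = 0.00313, 6.15%). DESeq2 gave adjusted p-values of 0.495 and 0.326. Without the male Jarid2 KO library both calls ended (adjusted p 0.223 and 0.107), and the call against Control also ended without either Control library (0.188 and 0.0832). A cluster led by Stab2, Il1rl1 and Il2ra held 89.3% of the class in Jarid2 KO, 60.6% in Control and 54.0% in Ezh2 KO, and its part in the result was not tested.

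Dnmt3b was lower in baseline myeloid-like cells of Jarid2 KO, at 27.2 and 33.5 CPM (34 and 54 UMIs) against 53.5 and 49.7 in Control (69 and 276 UMIs), with Ezh2 KO at 38.1 and 40.8. The log2 difference from Control was -0.65 (SE 0.20, edgeR adjusted p = 0.0406), where 8.99% of all genes were called. DESeq2 gave an adjusted p of 0.342, and the call ended without the male Control (0.129) and without either Jarid2 KO library (0.422 and 0.14). Different clusters held most of the class: one led by Mcpt8, Cpa3 and Ccl9, which holds as many basophil or mast markers as myeloid ones among its top genes, held 78.3% in Control, and one led by Elane, Ms4a3 and Hp held 57.4% in Jarid2 KO.

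In transplant lymphoid-like cells Uhrf1 was lower in Jarid2 KO than in Ezh2 KO, at 72.8 and 71.5 against 111 and 102 CPM. The Control, at 76.4, lay close to the Jarid2 KO libraries and below both Ezh2 KO libraries, and neither knockout was called against it. The log2 difference between the knockouts was -0.58 (SE 0.13, edgeR adjusted p = 0.0366), where 5.21% of all genes were called. The call ended when any one of the 4 knockout libraries was left out (adjusted p 0.0593 to 0.21), and DESeq2 gave 0.103. B markers moved with this call. Over all kept cells the 10 genes of the B list, all detected in each transplant library, summed to 574 and 443 CPM in Ezh2 KO. They summed to 83.2 and 106 in Jarid2 KO and 48.4 in Control. No transplant cluster was named B-like, but clusters were found and named in the Control library only. The missing name therefore does not show that B-lineage cells were absent from the knockouts. Rag1 is on both the B and the lymphoid list. The lymphoid-like class itself made up 18.6% and 16.3% of the Ezh2 KO, 7.0% and 8.19% of the Jarid2 KO and 5.95% of the Control cells. The sex markers were uneven between these knockouts too, as given for Tet1 above. The part of B-lineage cells and of sex in the result was not tested. In stem-like cells no gene of the 7 was called in either experiment. Uhrf1 stood at 11.0 and 8.79, 10.8 and 7.57, and 7.63 and 8.59 CPM in the baseline stem-like cells of Control, Ezh2 KO and Jarid2 KO, and Tet1 at 64.8 and 72.4, 65.6 and 73.6, and 64.4 and 68.6. The Uhrf1 values of Control and Jarid2 KO did not overlap, while the Ezh2 KO values overlapped with each of them, and the Tet1 values of all genotypes overlapped. Over all kept baseline cells 36.6% of all genes did not overlap between Control and Jarid2 KO, and no share is given for the stem-like class. Of the 2 largest baseline stem-like clusters, one led by Ppp2r2b and Bace2 held 46.3% of the class of Control, 50.0% of Ezh2 KO and 4.56% of Jarid2 KO, and one led by Ncam2 and Cyp26b1 held 45.2%, 44.2% and 87.7%.

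Surface protein, measured on the same cells with antibodies, gave another view of cell state at baseline. Cells were gated on CD150, CD48 and CD135 antibody counts, cut by rank within each library, into ranges used for stem cells (CD150 high, CD48 low) and for the multipotent progenitors MPP2, MPP3 and MPP4. The stem gate held 1302 to 1599 cells per library, MPP4 1956 to 2796, MPP2 213 to 814 and MPP3 116 to 252. Uhrf1 was at 42.6 and 52.4 CPM in the stem gate of Control, 57.9 and 47.6 in the Ezh2 KO pair and 35.6 and 44.7 in the Jarid2 KO pair, and at 66.8 to 80.0 in MPP4 over all libraries. Tet1 was at 53.6 to 65.2 CPM in the stem gate and 59.3 to 71.0 in MPP4, against 27.7 to 40.6 in MPP2 and 30.2 to 42.2 in MPP3. The Tet1 ranges of the stem and MPP4 gates overlapped. B-like cells, which were low in Tet1, made up as much as 87.8% of the MPP2 and 57.8% of the MPP3 gate in a library. Without them Tet1 was at 31.9 to 49.3 CPM in MPP2 and 33.4 to 54.4 in MPP3, so that MPP3 reached the stem gate (53.8 to 65.2) and MPP2 lay below it.

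Over 28 tests per contrast in the gates edgeR called 0 in Ezh2 KO against Control, 0 in Jarid2 KO against Control and 3 between the knockouts, with 7, 6 and 7 at an unadjusted p under 0.05 (over the gates, 12.1% to 29.5%, 6.57% to 15.2% and 16.3% to 33.5% of all genes). DESeq2 was not run on the gates. In that order of contrasts the shares of all genes called were 0.236%, 0% and 0.843% in the stem gate, 12.8%, 0.0787% and 18% in MPP2, 5.93%, 1.49% and 10.9% in MPP3 and 1.19%, 0.678% and 3.3% in MPP4. Uhrf1 in the MPP2 gate was at 151 and 156 CPM in Ezh2 KO, 102 and 91.2 in Jarid2 KO and 145 and 114 in Control, with a log2 difference of -0.74 between the knockouts (SE 0.11, edgeR adjusted p = 0.0074, 18% of all genes called). Uhrf1 in the MPP3 gate was at 167 and 150, 93.6 and 104, and 142 and 127 CPM in the same order, with a difference of -0.71 (SE 0.13, edgeR adjusted p = 0.00269, 10.9%). Dnmt1 in the MPP3 gate was at 238 and 243, 157 and 199, and 200 and 223 CPM, with a difference of -0.47 (SE 0.12, edgeR adjusted p = 0.0222). In all 3 the Jarid2 KO libraries lay under the Controls and the Ezh2 KO libraries above them.

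B-like cells moved with these calls as well. They made up 87.8% and 67.4% of the MPP2 gate in Ezh2 KO, 45.9% and 7.06% in Control and 15.5% and 12.5% in Jarid2 KO. In the MPP3 gate they made up 57.8% and 40.0%, 29.3% and 12.4%, and 11.7% and 13.5%, and 27.6% and 26.5% of MPP3-gated cells were called G1 in Ezh2 KO, against 52.9% and 60.3% in Jarid2 KO. Without B-like cells edgeR called 0 of the 28 tests between the knockouts: Uhrf1 stood at -0.47 in MPP2 (adjusted p = 0.0546) and -0.30 in MPP3 (0.424), and Dnmt1 at -0.41 in MPP3 (0.127). The Uhrf1 calls in MPP2 and MPP3 also ended without the male Jarid2 KO library (edgeR adjusted p = 0.109 and 0.0563), and the MPP2 call without the female Ezh2 KO (0.0751) or the female Jarid2 KO library (0.0512). The Dnmt1 call ended without the male Ezh2 KO (0.189) or the male Jarid2 KO library (0.353).

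**Figure D5:**
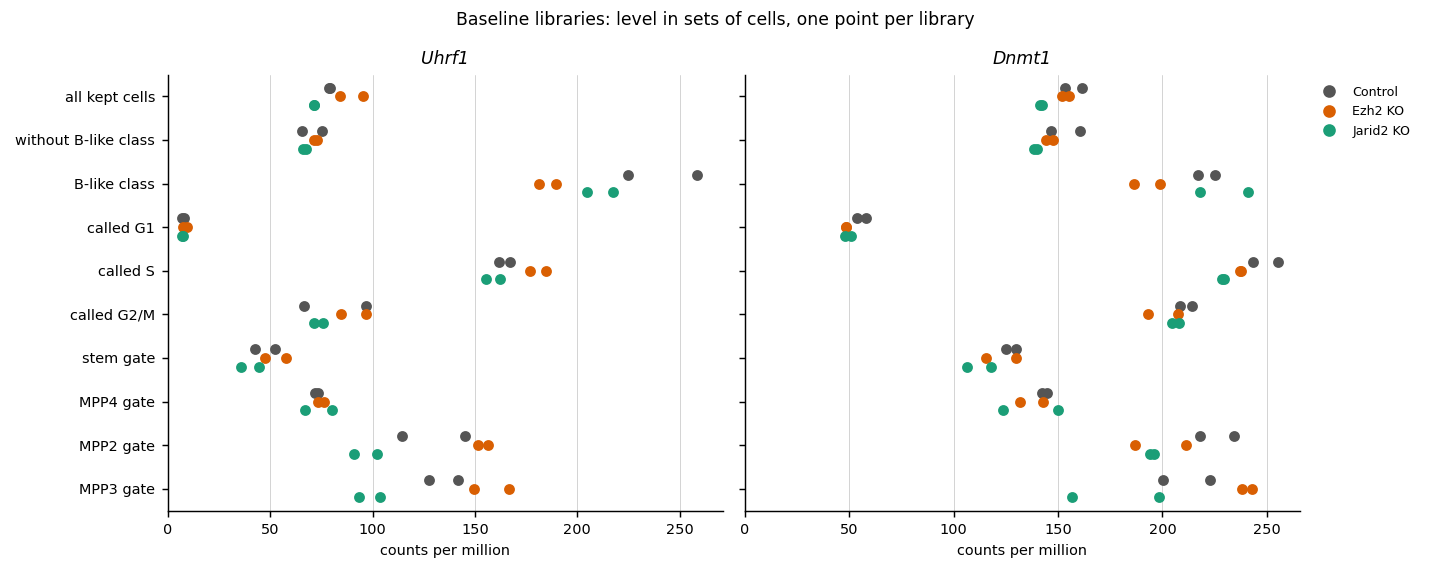
CPM of Uhrf1 (left) and Dnmt1 (right) in sets of baseline cells, one point per library and colour by genotype, horizontal axes from 0. In the MPP3 gate Uhrf1 is at 93.6 and 104 in Jarid2 KO and at 167 and 150 in Ezh2 KO, and without the B-like class the all-cell values draw together, at 65.7 to 75.2.

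The wider pathway was followed through a fixed list of 56 genes: partners of maintenance and de novo methylation, methyl-CpG readers, demethylation and repair enzymes, CpG and H3K36 guidance factors, and methyl donor enzymes. At baseline edgeR called 0 of 55 tested against Control in Ezh2 KO (15 at an unadjusted p under 0.05, 3 called by DESeq2) and 0 in Jarid2 KO (6 and 0). Between the knockouts it called 2, both lower in Jarid2 KO, with 26 at an unadjusted p under 0.05, and DESeq2 called 8. Over all genes the shares called were 3.61%, 0.0275% and 6.12% by edgeR and 7.54%, 1.34% and 8.75% by DESeq2, and the shares at an unadjusted p under 0.05 were 23.4%, 11.5% and 26.5%. After transplantation edgeR called 1 of 54 in Ezh2 KO against Control (3 unadjusted and 1 by DESeq2), 0 in Jarid2 KO against Control (2 and 0) and 1 between the knockouts (6 and 1), where all genes gave 4.94%, 0.369% and 12.3% by edgeR and 5.72%, 1.19% and 11.7% by DESeq2. The shares of all genes at an unadjusted p under 0.05 in these contrasts are those given above for the whole transplant libraries. The list's median log2 difference lay between -0.03 and 0.05 in all 6 comparisons, and that of all genes between -0.00 and 0.01.

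Pcna, the replication clamp that recruits Dnmt1, was at 249 and 234 CPM in baseline Control, 284 and 257 in the Ezh2 KO pair and 217 and 210 in the Jarid2 KO pair. Its difference between the knockouts was -0.36 on the log2 scale (SE 0.05, edgeR adjusted p = 0.029), and its libraries stood in the same order of genotypes as those of Uhrf1. Gadd45b, a stress-induced gene tied to active demethylation, was at 10.9 and 10.5, 14.9 and 13.9, and 10.0 and 10.9 CPM, with a difference of -0.49 (SE 0.09, edgeR adjusted p = 0.0421). Both genes were highest in the Ezh2 KO libraries, in which the B, S-phase and G2/M lists were also higher than in Jarid2 KO and the RNA quality list lower, and Pcna is itself on the S-phase list. The B list summed to 3112 and 1656 CPM in the Ezh2 KO pair, against 473 and 464 for Jarid2 KO. The S-phase list summed to 3664 and 3481 against 3224 and 3228, and the part of the cycle and RNA quality lists in the result was not tested. Without B-like cells the differences were -0.23 for Pcna (edgeR adjusted p = 0.0852) and -0.16 for Gadd45b (0.369), and neither was called. Both calls also ended without the male Ezh2 KO library (edgeR adjusted p = 0.0711 for Pcna and 0.117 for Gadd45b), the male Jarid2 KO library (0.212 and 0.262) or the female Jarid2 KO library (0.117 and 0.103).

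After transplantation Gadd45g, a relative of Gadd45b, was at 5.4 CPM in Control, 2.8 and 2.8 in the Ezh2 KO pair and 3.4 and 3.3 in the Jarid2 KO pair, a difference of -1.02 for Ezh2 KO against Control (SE 0.15, edgeR adjusted p = 0.0182). The single Control stood above all 4 knockout libraries, and the call ended without the second Ezh2 KO library (edgeR adjusted p = 0.0598). Kdm2b, which binds unmethylated CpG islands and brings variant PRC1 there, was at 51.2 CPM in Control, 47.4 and 49.9 in the Ezh2 KO pair and 56.1 and 64.4 in the Jarid2 KO pair, a difference of 0.34 between the knockouts (SE 0.08, edgeR adjusted p = 0.0465). That call ended without any one of the 4 knockout libraries (adjusted p 0.0562 to 0.251). Cell type lists, with every gene of each detected, moved in both contrasts. The erythroid list summed to 401 and 441 CPM in the Ezh2 KO pair, 207 and 215 for Jarid2 KO and 253 for Control. The myeloid list summed to 9655 and 10354, 14624 and 19019, and 12568 CPM in the same order, and the lymphoid list to 1676 and 1660, 1278 and 1474, and 978. With the B list, at 443 to 574 CPM for Ezh2 KO and 48.4 to 106 for the other libraries, their part in the Gadd45g and Kdm2b results was not tested. The sex markers of the transplant libraries, given above, were uneven along both contrasts as well. At baseline Kdm2b was also lowest in Ezh2 KO, at 67.7 and 67.9 CPM, against 78.8 and 81.2 in Control and 78.0 and 84.9 in Jarid2 KO, without a call there.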

How the data were processed

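The deposited matrices hold raw UMI counts per gene and cell barcode, made with Cell Ranger 7.2.0 (baseline) and 6.1.2 (transplant) per the file headers. The submitters' processing notes list Cell Ranger 3.1.0, Seurat 3.0, Partek and mm10. For annotation, strand and introns the setting is not given in the sources used here. Cells were kept with at least 1000 UMIs, 500 genes and at most 10% mitochondrial UMIs, and the barcodes with the highest Scrublet scores, 0.8% per 1000 barcodes, were removed as doublets. Clusters and phases were found with scanpy 1.11.5 without the 7 genes, in each experiment separately. Variable genes, scaling, components and clusters came from Control cells only, and clusters were named there from fixed marker lists. Each knockout cell was then given the commonest cluster of its 15 nearest Control cells. Counts were summed per library and cell set and tested with edgeR 4.0.16 (TMM, filterByExpr, quasi-likelihood, two-sided, Benjamini-Hochberg over all genes tested, threshold 0.05), with genotype and sex at baseline and genotype alone after transplantation, where the single Control is assumed to vary like the knockouts. DESeq2 1.42.0 was an alternative. The scripts were tested on simulated data. A CPM is a count per 1000000 UMIs of that cell set.

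The members and lists were chosen with earlier results of these data known. Genes named are the 7 members, called genes of the pathway list, the 3 genes most like each member, and the targeted and cycle genes. All per-sample columns could be mapped to samples. Libraries of one group differed beyond sampling noise (chi-square per degree of freedom 30.1 to 245). Baseline replicate numbers mark sex, and same-sex libraries deviated together (r = 0.257 to 0.367), so sex is also the replicate block. Transplant numbers did not pair (r = -0.154). The 6 antibody samples are the 6 antibody features of the baseline matrices. The series' 6 CUT&Tag samples are not used here.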

Additional observations from a re-analysis of the deposited data

How the results depend on the processing

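Calls among the 7 genes over whole libraries were few under every alternative. At baseline, where sex is the replicate block, the count between the knockouts was 1 with the replicate block and 0 without it or without the B-like class, and leaving out 1 library gave 0 to 1 both there and in Ezh2 KO against Control. After transplantation the replicate block, with numbers as labelled or crossed (the latter chosen after seeing the data), called 0. Over both experiments DESeq2 called 1 in Ezh2 KO against Control and 2 between the knockouts, against 0 by edgeR, and leaving out 1 library gave 0 to 1 between the knockouts. Inside classes DESeq2 called 0 in each of the 3 baseline contrasts and 1 between the transplant knockouts, and leaving out 1 library gave 0 to 2 in each of these. In the gates the count between the knockouts was 0 without B-like cells and 0 to 5 without 1 library, and 0 to 1 for Ezh2 KO against Control. On the pathway list DESeq2 called 3 in Ezh2 KO against Control and 8 between the knockouts at baseline, and leaving out 1 library gave 0 to 1 and 0 to 4 there, and 0 to 1 in each of the same contrasts after transplantation.

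Estimates that changed sign were all uncalled. Without B-like cells at baseline Dnmt1 (-0.0465) and Dnmt3a (0.0352) did so in Ezh2 KO against Control and Dnmt3b (-0.12) between the knockouts. After transplantation these were Dnmt3b in Jarid2 KO against Control (0.0028 without a filter, 0.0028 with strict cells, 0.0424 in male cells), Tet1 (-0.0696) and Tet3 (-0.0190) in the same contrast in male cells, Dnmt3a (-0.0162, strict cells) and Tet2 (0.0929, male cells) in Ezh2 KO against Control, and Dnmt1 between the knockouts (-0.0178 above 10 CPM, -0.0403 with strict cells, -0.0169 in male cells). Leaving out 1 baseline library gave ranges across 0 for Dnmt1 (-0.0509 to 0.0685), Dnmt3a (-0.11 to 0.0250) and Dnmt3b (-0.0304 to 0.0436) in Ezh2 KO against Control, and for Dnmt3b in Jarid2 KO against Control (-0.000957 to 0.0659) and between the knockouts (-0.0126 to 0.0615). Leaving out 1 transplant library did so for Dnmt3b (-0.0116 to 0.00976) and Tet1 (-0.0523 to 0.10) in Jarid2 KO against Control, Tet2 (-0.21 to 0.0439) and Uhrf1 (-0.0136 to 0.13) in Ezh2 KO against Control, and Dnmt1 between the knockouts (-0.0433 to 0.0699). The causes of these changes were not tested. Groups of 2 libraries and a single transplant Control limit the precision, and in some classes so do fewer than 100 UMIs of a gene in a library.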
